A study of Mus musculus with 8 samples.

Results

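The distal stretch of mouse chromosome 4 beyond 60 Mb was described in a comparison of H3K27me3, trimethylation of histone H3 at lysine 27, between 2 sets of 3 chromatin immunoprecipitation sequencing libraries. The members are the regions of the authors' deposited table that lie on chromosome 4 and start at or beyond 60 Mb on the mouse build GRCm38. There were 11689 of them among 265968 listed regions. The stretch was chosen by these same library values, because most of its regions are higher in the same set of libraries. Its direction is therefore a description, and no test was made of it.

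The cells were mouse 3T3 fibroblasts, an established embryonic fibroblast line, that expressed either a control construct or NNMT, nicotinamide N-methyltransferase, an enzyme that uses the methyl donor S-adenosylmethionine to methylate nicotinamide. Both groups had the same medium, with methionine held at 10 µM and 10% dialyzed serum, for 48 h. Chromatin was fixed with 1% formaldehyde and cut with micrococcal nuclease, and the antibody was clone C36B11. Each construct had 3 immunoprecipitated libraries, labelled as replicates 1 to 3, and 1 input library, which was not analysed here. The promoter that drives the constructs, the way they were introduced, and whether the cells were clones or pools are not stated in any source used here.

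H3K27me3 is placed by Polycomb repressive complex 2 and is read by Polycomb repressive complex 1. In fibroblasts it covers genes that other lineages use, such as homeobox and other developmental transcription factors, neuronal genes and blood genes, and it also lies in broad domains over gene-poor DNA. Promoters rich in CpG dinucleotides are the usual starting points of Polycomb domains in mammalian cells.

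Neither a header nor another source used here tells whether the NNMT or the control values come first in the table. Set 1 below means the values given first and set 2 those given second, and whether NNMT raised or lowered the mark is left unsaid. Libraries are not numbered within a set either, so values stand per library in the table's order. The error of a ratio is its lowest and highest value when each set 1 library is divided by each set 2 library, 9 pairs in all. Regions whose 2 sets do not overlap, every library of one being above every library of the other, are called separated. The table holds only regions with a deposited p of at most 0.1, so a stretch without listed regions is not shown to lack the mark. Without the inputs, more of the mark per DNA copy and more DNA copies in a set cannot be told apart. The values are whole numbers in no stated unit. No gene expression is in the table, so the cell type could not be checked against its markers. None of 14 fibroblast identity genes looked up (Col1a1, Pdgfra, Thy1 and others) carried a listed region. Of all named genes outside the stretch, 32.1% carried one.

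The kinds of promoter that the listed regions cover are shown first, by the 250 bases upstream of 5 annotated starts, as RefSeq gives them for GRCm38.p6. They run 5′ to 3′ on the gene's strand, with each CpG in capitals. Dmbx1, a homeobox gene of the developing brain, holds 23 CpG. Csf3r, the receptor for granulocyte colony-stimulating factor, holds 6, and the olfactory receptor gene Olfr1342 holds 5. Mup6, a major urinary protein gene of the liver, holds 2 and is the only one of the 5 under a region higher in set 2. Ifna2, a type I interferon gene, holds 1.
Dmbx1, chr4:115939927-115940176, strand −: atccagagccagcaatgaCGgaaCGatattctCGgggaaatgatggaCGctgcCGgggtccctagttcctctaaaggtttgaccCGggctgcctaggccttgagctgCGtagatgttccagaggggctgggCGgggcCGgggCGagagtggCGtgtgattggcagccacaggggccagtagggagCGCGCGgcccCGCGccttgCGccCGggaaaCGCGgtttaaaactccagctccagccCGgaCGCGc
Csf3r, chr4:126024409-126024658, strand +: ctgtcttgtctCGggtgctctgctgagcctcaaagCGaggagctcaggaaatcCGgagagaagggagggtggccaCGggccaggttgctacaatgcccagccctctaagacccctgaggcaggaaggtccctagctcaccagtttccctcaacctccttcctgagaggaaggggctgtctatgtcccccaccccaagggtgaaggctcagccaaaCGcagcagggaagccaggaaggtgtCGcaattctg
Olfr1342, chr4:118690451-118690700, strand −: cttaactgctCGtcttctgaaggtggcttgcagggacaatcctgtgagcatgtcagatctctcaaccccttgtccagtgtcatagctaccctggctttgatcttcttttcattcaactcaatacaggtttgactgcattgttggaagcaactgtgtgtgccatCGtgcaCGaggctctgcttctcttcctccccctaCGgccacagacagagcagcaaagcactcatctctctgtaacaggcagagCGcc
Mup6, chr4:60003231-60003480, strand +: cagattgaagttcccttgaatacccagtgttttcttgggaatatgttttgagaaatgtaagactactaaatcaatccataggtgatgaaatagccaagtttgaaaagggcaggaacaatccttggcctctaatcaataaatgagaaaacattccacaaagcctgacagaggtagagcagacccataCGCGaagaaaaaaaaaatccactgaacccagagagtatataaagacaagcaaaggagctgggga
Ifna2, chr4:88683780-88684029, strand −: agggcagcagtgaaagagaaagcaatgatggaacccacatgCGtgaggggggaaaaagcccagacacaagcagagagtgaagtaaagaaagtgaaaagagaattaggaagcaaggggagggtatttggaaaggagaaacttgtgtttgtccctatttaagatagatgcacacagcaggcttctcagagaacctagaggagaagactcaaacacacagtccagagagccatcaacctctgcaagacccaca

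Across the RefSeq promoters, 92.1% hold at least 1 CpG (the letters CG, the same on both strands) in these 250 bases, and 37.8% hold 10 or more. The stretch has 1567 annotated promoters. The 240 under a region higher in set 1 had a median of 3 CpG and 12.1% of them had 10 or more, whereas the 1322 under no listed region had a median of 8 and 47.4% with 10 or more. Only 5 promoters lay under a region higher in set 2, with a median of 2 CpG. Outside the stretch the medians were 3 for 2342 promoters under regions higher in set 1, 3 for 1134 under regions higher in set 2 and 6 for 27877 under none. Dmbx1 is therefore at the CpG-rich end of the covered promoters.

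Of the 36 miRNA hairpins annotated in the stretch, 1 lay under a listed region. It was Mir200b, whose family is known for keeping epithelial cells epithelial. Its mature RNAs, from RefSeq, are shown with the seed (bases 2 to 8) in capitals.
mmu-miR-200b-3p, chr4:156055685-156055706, strand −: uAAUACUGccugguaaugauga
mmu-miR-200b-5p, chr4:156055721-156055742, strand −: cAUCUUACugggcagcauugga
The region over the hairpin, chr4:156055501-156060950, had deposited values of 1224, 1412 and 1169 in set 1, against 811, 893 and 1045 in set 2. The 3 libraries of set 1 were all higher, by 1.38-fold in the sums.

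Of the 11689 regions, 10885 (93.1%, 95% Wilson interval 92.6% to 93.6%, counting error only) had the higher sum in set 1, where the whole table had 59.5%. The other 804 (6.88%) were higher in set 2, against 40.5% of the whole table. Separated regions numbered 8362 with set 1 higher (71.5%, against 40.5% of all listed regions) and 426 with set 2 higher (3.64%, against 24.7%), and in the other 2901 the libraries of the 2 sets overlapped. Over all listed regions 65.1% did not overlap in one direction or the other. Neighbouring regions share chromatin and libraries and are not independent, so these intervals and counts describe the list only.

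Summed over the stretch, the set 1 libraries had 2680479, 2673391 and 2553439 and the set 2 libraries 1599640, 1662369 and 1627489. The sets did not overlap, and the ratio was 1.62 (1.54 to 1.68 over library pairs). Within each library, the stretch took 6.41%, 6.37% and 6.40% of all listed value in set 1 and 4.49%, 4.50% and 4.58% in set 2. The whole table summed 1.14-fold higher in set 1, and with both sets scaled to equal totals the ratio of the stretch was 1.41.

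The same count was 61.2% over the 3329 regions of chromosome 4 below 60 Mb, with a ratio of 1.18, and 57.9% over the 250950 regions of the other chromosomes, with a ratio of 1.12. The other autosomes ran from 33.6% on chromosome 16 to 75.5% on chromosome 10. On chromosome X 1972 of 1976 regions (99.8%) were higher in set 1, with a ratio of 2.19. On chromosome Y all 19 listed regions were higher in set 2, with sums of 35, 22 and 20 in set 1, against 579, 602 and 706 in set 2. The part of a difference in chromosome copies between the sets in the lean of the stretch was not tested.

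**Figure D1:**
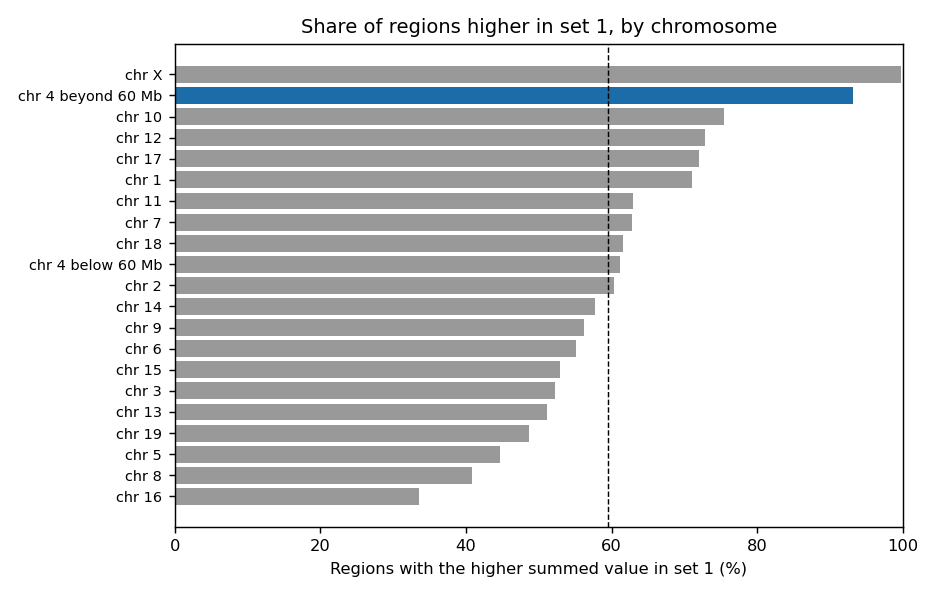
Percent of listed regions with the higher summed value in set 1, for chromosome 4 beyond 60 Mb, chromosome 4 below 60 Mb and each other chromosome except Y, with the whole table's 59.5% as a dashed line. The stretch stands at 93.1%, below X at 99.8% and above chromosome 10 at 75.5%.

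The boundary at 60 Mb does not mark where the lean begins. The 5 windows of 1 Mb from 55 to 59 Mb held 84, 106, 397, 60 and 207 regions, of which 100%, 89.6%, 96.5%, 98.3% and 94.2% were higher in set 1. Their ratios were 1.82, 1.33, 1.90, 1.74 and 1.84. Just before them, the window at 54 Mb had 25.6% and a ratio of 0.75, the window at 53 Mb had 56.3% and 1.01, and the window at 52 Mb had 5.45%. The last region before the boundary, chr4:59997351-59997700, had values of 50, 45 and 22 in set 1, against 65, 58 and 65 in set 2. The first region beyond it, chr4:60001901-60002600, had 165, 167 and 111 against 86, 130 and 97. The next, chr4:60003401-60003700 over the Mup6 start, had 36, 19 and 39 against 38, 81 and 31. The libraries of the 2 sets overlapped in both regions just inside the boundary.

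Cut into 1 Mb windows, the stretch spans 97 windows, of which 81 held listed regions and 16 held none. In 71 windows there were 10 or more regions. Of these, 69 summed higher in set 1 and 2 higher in set 2, and in 66 all 9 library pairs gave a higher value in set 1. The ratio in the 69 had a median of 1.66 (quartiles 1.54 to 1.79), and in 52 windows at least 95% of regions were higher in set 1. In 18 windows, with 1931 regions between them, every region was. From 105 Mb to the end of the chromosome, all 44 windows with 10 or more regions summed higher in set 1.

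The ratios of most windows were alike. Among the 50 windows with 100 or more regions, 44 had a ratio between 1.4 and 2.0. Among 1764 windows of the rest of the genome with 10 or more regions, 59.6% summed higher in set 1, against 97.2% in the stretch, and the median ratio was 1.11 (quartiles 0.814 to 1.39), against 1.65 (1.53 to 1.78). Counting only such windows and skipping those with fewer regions, unbroken series higher in set 1 occurred elsewhere too. They held 46 windows on chromosome 2 (68 to 133 Mb) and 38 on X (6 to 160 Mb), beside 44 here.

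**Figure D2:**
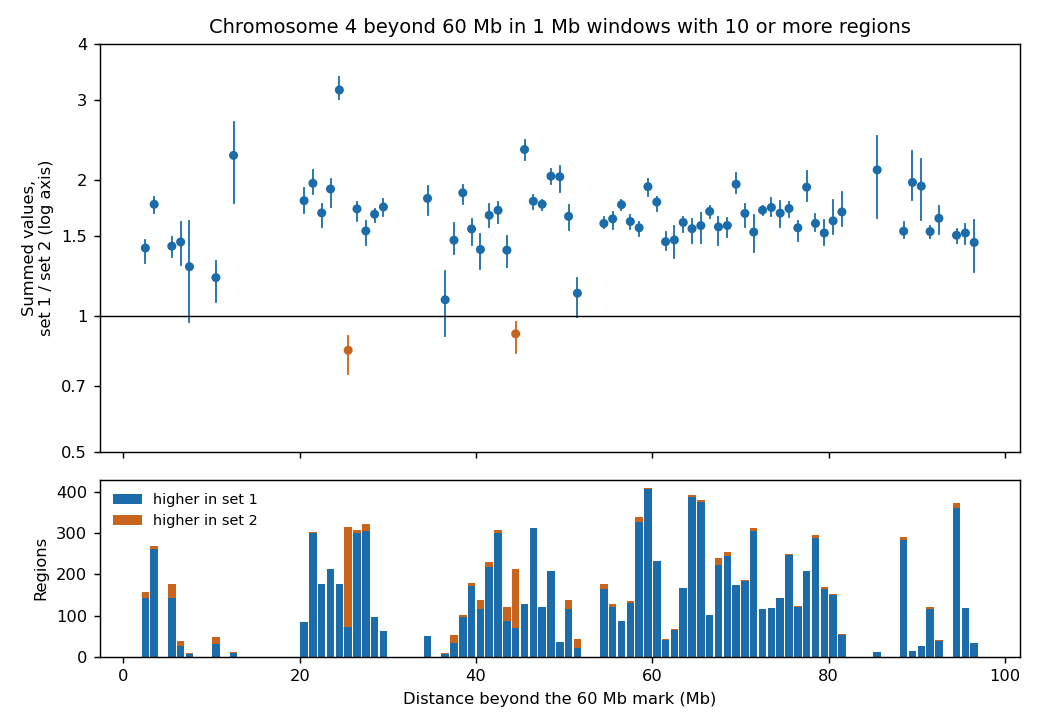
The upper panel gives the ratio of set 1 to set 2 summed values (log axis, bars for the range over 9 library pairs) in each 1 Mb window of chromosome 4 beyond 60 Mb with 10 or more regions, and the lower panel the number of listed regions per window. Points lie mostly near the median of 1.66, with 2 windows below 1 and the highest, at 3.16, directly before the lower of them.

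Among windows with 10 or more regions, the highest 1 Mb ratio stood beside the lowest. At 84 Mb, 176 of 176 regions were higher in set 1, with sums of 13262, 12396 and 12299 against 4002, 3914 and 4079, a ratio of 3.16 (3.02 to 3.39). At 85 Mb, 242 of 315 regions were higher in set 2, with sums of 32599, 31781 and 28898 against 36172, 38818 and 36081, a ratio of 0.84. All 3 set 2 libraries lay above all 3 of set 1 there. The pair at 104 and 105 Mb was alike. At 104 Mb, 142 of 213 regions were higher in set 2 and the ratio was 0.91, while at 105 Mb all 127 were higher in set 1 and the ratio was 2.34 (2.22 to 2.45). The lowest window on the set 1 side, 96 Mb with 10 regions, had a ratio of 1.09, and its library pairs ran from 0.904 to 1.26.

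At a finer scale of 100 kb, a scale chosen after the values were seen, 338 windows held 10 or more regions, and 321 summed higher in set 1. Their median ratio was 1.66 (quartiles 1.51 to 1.93), and 17 reached 3 or more. The highest, at 119.9 Mb, lay within Hivep3, with 39 regions and a ratio of 6.22. The windows at 105.9 and 106.0 Mb followed, with 34 and 104 regions and ratios of 6.0 and 5.54. Col8a2, a collagen gene, overlaps the window at 126.2 Mb, with a ratio of 3.02.

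Region size bore on the ratio. Among regions higher in set 1, the median fold fell from 3.38 where the 6 values summed to at most 100 to 1.56 (quartiles 1.44 to 1.69) where they summed to over 5000. Outside the stretch it fell from 3.38 to 1.31 (1.22 to 1.46). Of the regions summing to at most 100, 96.2% were higher in set 1 inside the stretch and 63.5% outside. Among small regions the share thus differed while the fold was alike, and among large ones both differed. All 489 regions of the stretch with sums over 5000 were higher in set 1, 485 of them separated, where outside it 77.3% of such regions were higher in set 1. A list selected for a difference keeps a small region only when its fold is large, so the folds of small regions are set partly by the selection.

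**Figure D3:**
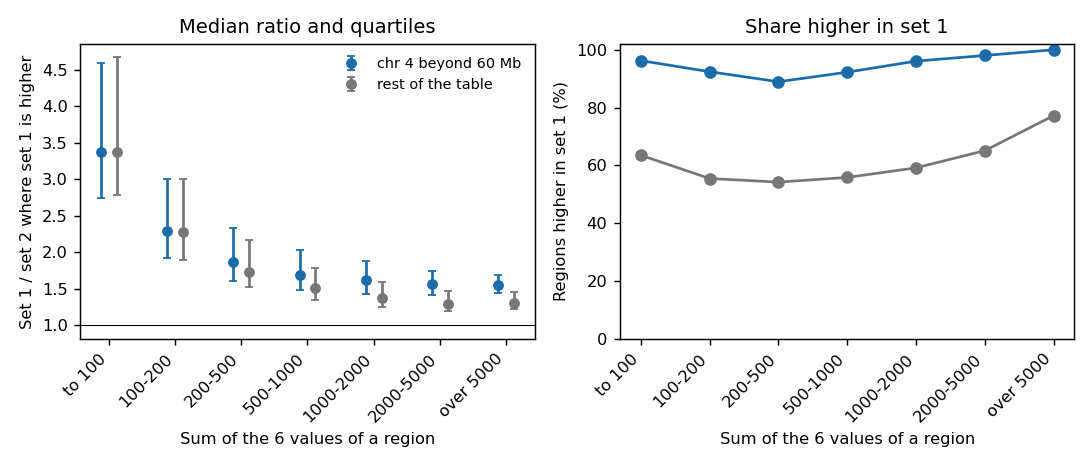
Median fold, with quartiles, of regions higher in set 1 and the percent of regions higher in set 1, by the summed value of the 6 libraries, for the stretch and for the rest of the table. The folds start together at 3.38 in the smallest regions and end at 1.56 in the stretch and 1.31 elsewhere.

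The listed regions of the stretch covered 11.5 Mb, 11.1 Mb of it in regions higher in set 1 and 0.386 Mb in regions higher in set 2. Their median lengths were 450 and 350 bases. Of 89 regions of 10 kb or longer, 0 were higher in set 2, against 58 of 380 outside the stretch. The longest region of the stretch, chr4:117330951-117382650, was 51700 bases and lay over Rnf220, a ubiquitin ligase gene. The stretch's longest region higher in set 2 was 3300 bases, in Adamtsl1. Of the regions higher in set 1, 41.8% lay within 2 kb of a named gene or in it, and of those higher in set 2, 67.3%. Outside the stretch these shares were 41.2% and 39.2%. Many of the stretch's set 2 regions in or near genes lay at a few genes, with 160 at Adamtsl1, 120 at Dab1, 56 at Sh3gl2 and 45 at Astn2.

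RefSeq places 935 named genes in the stretch. Of these, 318 (34.0%, against 27.5% of 20503 named genes in the genome) carried a region higher in set 1, in the gene or within 2 kb. Only 61 (6.52%, genome 18.5%) carried one higher in set 2, and 59 of those carried both kinds. The 2 with set 2 regions alone were Cyp2j12 and Lepr, with 1 region each. No listed region touched 615 genes. Summed over each gene, values were higher in set 1 in 312 of 320 genes with a region, with a median ratio of 1.70 (quartiles 1.53 to 2.02). Outside the stretch 68.3% of 6291 such genes were higher in set 1. Lists of genes were made with earlier results of these data known, and their counts are descriptions. These counts are to be read beside the 34.0% and 6.52% of all named genes in the stretch.

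Developmental transcription factors, the classical Polycomb targets, were listed with 30 members, and 22 carried a region higher in set 1, 6 of them also one higher in set 2. All 22 summed higher in set 1, with a median ratio of 1.58 and a range of 1.20 to 3.27. Foxo6, a forkhead factor gene of the brain, was at the top. Its 8 regions summed to 6164, 6331 and 5541 in set 1 and 1962, 1642 and 1911 in set 2, so the lowest set 1 library was above the highest of set 2 by 2.82-fold. Its region chr4:120274101-120282650 had a ratio of 3.04.

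Dmbx1, whose promoter is printed above, had 12 regions, all higher in set 1. Its 23.5 kb region, chr4:115927851-115951350, had 7711, 8130 and 7768 in set 1 and 5087, 5305 and 5110 in set 2, a ratio of 1.52 with no overlap. Runx3, a factor of T cells and sensory neurons, had 28 regions, all higher in set 1, summing to 5043, 5000 and 5097 against 2445, 2276 and 2399, a ratio of 2.13. The libraries of each set were close to each other there.

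Prdm16, a regulator of brown fat and haematopoietic stem cells, had 110 of 114 regions higher in set 1 and a ratio of 1.55 (1.49 to 1.60). Pax7, the factor of muscle stem cells, had 46 of 50 and 1.43 (1.36 to 1.49). Trp73, a relative of p53, had 35 of 37 and 1.42. Casz1, a zinc finger factor of heart and nerve cells, had 52 of 55 and 1.53. These genes thus held single regions on the other side inside domains that summed higher in set 1. Tal1, a master factor of blood stem cells, had all 10 regions higher in set 1, with a ratio of 1.46, and its library pairs ran from 1.18 to 1.70.

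Blood and immune genes were listed with 20 members, and 14 carried a region higher in set 1 and 0 one higher in set 2. Over all named genes of the stretch the shares were 34.0% and 6.52%. The median ratio of the 14 was 1.64. Csf3r had 7410, 7594 and 7129 in set 1 and 4464, 4716 and 4527 in set 2 over 10 regions, a ratio of 1.61 with no overlap. Lck, the kinase of the T cell receptor, had 22 regions, 1733, 1725 and 1624 against 670, 772 and 734, a ratio of 2.34. Laptm5, a lysosomal protein gene of blood cells, had a ratio of 1.51 over 9 regions. The neighbouring complement genes C1qa, C1qb and C1qc had ratios of 1.58, 1.46 and 1.45, and the library pairs of C1qa ran from 1.08 to 2.42.

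Among 34 receptors and ligands, 21 carried a region higher in set 1 and 3 one higher in set 2, with a median ratio of 1.81. Over all named genes of the stretch the shares were 34.0% and 6.52%. Ptprf, a receptor tyrosine phosphatase gene, had 67 regions, all higher in set 1, with 6080, 5714 and 5504 against 2414, 2469 and 2371, a ratio of 2.38. The angiopoietin receptor Tek, an endothelial kinase, had 36 regions and a ratio of 1.83 (1.67 to 1.94), and its relative Tie1 had 4 regions and 1.4 (1.29 to 1.54). The ligand gene Tnfsf15, of the tumour necrosis factor family, had 30 regions and a ratio of 2.67. Lepr, the leptin receptor, stood against these with a single region of 55, 41 and 40 in set 1, against 25, 88 and 106 in set 2, whose libraries overlapped.

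Neuronal genes had 28 members, of which 19 carried a region higher in set 1 and 10 of those also one higher in set 2. Over all named genes of the stretch the shares were 34.0% and 6.52%. The median ratio of the list was 1.59. Grik3, a kainate receptor subunit, had 40275, 40297 and 37823 in set 1 and 22551, 26027 and 24703 in set 2 over 104 regions, a ratio of 1.62. Elavl4, a neuronal RNA-binding protein gene, had 61 of 66 regions higher in set 1 and a ratio of 1.90. This list also held Dab1 and Agbl4, which summed higher in set 2 and are described with the exceptions.

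Of 24 matrix and adhesion genes, 10 carried a region higher in set 1, and only Adamtsl1 one higher in set 2. Over all named genes of the stretch the shares were 34.0% and 6.52%, so neither count sets this list apart. Frem1, a basement membrane protein gene, was covered by listed regions over 89.6% of its length, with 37505, 36646 and 34462 in set 1 and 21896, 22675 and 21307 in set 2, a ratio of 1.65. Col8a2 had 14 regions with 1124, 1058 and 941 against 357, 338 and 367, a ratio of 2.94. Tnc and Pappa, matrix genes that fibroblasts can express, carried no listed region.

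The type I interferon cluster had 16 members, 13 with a region higher in set 1 and 0 with one higher in set 2, at a median ratio of 1.62. One region of 13.1 kb, chr4:88683451-88696550, covered Ifna2 and Ifnab together, with 4031, 3894 and 4002 in set 1 and 2605, 2607 and 2595 in set 2. Libraries within a set differed by far less than the sets, and the ratio was 1.53. Many of these genes are near-identical copies, and no source used here gives how reads that fit several copies were assigned.

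Genes that most cells use were nearly free of listed regions, though 65.8% of all named genes of the stretch also had none. Of 32 cell cycle, ribosomal and housekeeping genes 31 had none, and the other, Stmn1, had 1 in its flank. Of 12 genes of chromatin, methyl and NAD metabolism, only Phc2 had any. Phc2 is a subunit of Polycomb repressive complex 1. Its region chr4:128655101-128677950 had 8019, 8085 and 7648 in set 1 and 5083, 5078 and 5323 in set 2, a ratio of 1.53. Another region, 32.6 kb long with a ratio of 1.54, lay beside it at chr4:128621901-128654500. Nmnat1, an enzyme of NAD synthesis, and the cell cycle inhibitors Cdkn2a and Cdkn2b, all well-known genes of this chromosome, carried no listed region.

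Ranked by the difference between the sets in a separated region that overlaps the gene, the 12 genes leading on the set 1 side had folds of 1.43 to 1.84. After Rnf220 came Zswim5, a zinc finger gene of neurons, whose region chr4:116922551-116961750 had 14831, 14848 and 14782 in set 1 and 8743, 8717 and 8559 in set 2. The ranking also took in Rhbdl2, a rhomboid protease gene, at 1.79, and Rgs3, a regulator of G protein signalling, at 1.43. Lrp8os3 and Foxo6os, RNAs read opposite Lrp8 and Foxo6, had 1.64 and 1.67, and a region has no strand, so it cannot be assigned to one gene of such a pair. On the set 2 side the leading genes were Adamtsl1, Dab1 and Nfia, with folds of 2.00, 1.51 and 1.74. Rgs3 stood on that side as well, with another region at 1.26. The highest set 2 fold among the named regions, 3.72, was in Zfp618, with 9, 12 and 15 in set 1 against 35, 72 and 27 in set 2.

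**Figure D4:**
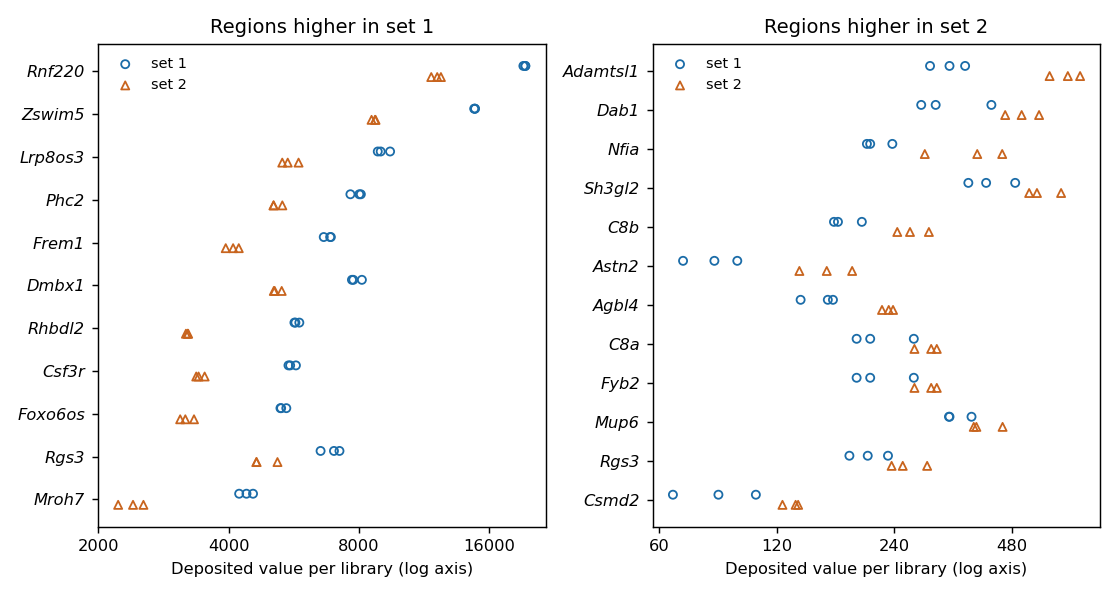
Deposited values of each of the 6 libraries (log axes) for the separated region with the largest difference in each of 11 of the 12 leading genes on the set 1 side and 12 on the set 2 side, where C8a and Fyb2 share a region. In the left panel values are larger and the folds lie between 1.43 and 1.84, while in the right panel values are smaller and the folds lie between 1.18 and 2.00.

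The 804 exceptions, regions higher in set 2, were few and grouped. Of them 426 were separated and 378 overlapped between the sets. Their median fold was 1.62, against 1.91 for regions higher in set 1. Of the 804, 207 reached 2-fold, against 4959 of the 10885 higher in set 1. In the whole table, 34218 of 107774 regions higher in set 2 did, and 59360 of 158194 higher in set 1. Their median summed value was 331, against 374 for regions higher in set 1, and the largest was 3521. Of regions summing to at most 100, 75 of 1998 were exceptions, against 392 of 3543 summing to over 200 and up to 500. They lay in 57 of the 81 windows, but 468 (58.2%) stood in 42 runs of 3 or more neighbouring exceptions with no set 1 region between. Grouped after the values were seen, 7 spans held 547 (68.0%) of them. In the rest of the stretch, 257 of 10513 regions were exceptions.

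The span from 85 to 86 Mb held 242 exceptions, and the one from 103 to 105 Mb held 177. Smaller groups were 48 from 65 to 67 Mb, 45 of them in Astn2, and 23 from 60 to 63 Mb, 5 of them at Mup6. A further 21 lay from 111 to 112 Mb in and near Agbl4, and 20 from 97 to 98 Mb in Nfia and below its start. The smallest group was 16 from 70 to 71 Mb, whose nearest named gene was Cdk5rap2. The spans are not the 7 fullest places, since the windows at 100 and 110 Mb, outside them, held 23 and 22 exceptions. Adamtsl1, Dab1, Astn2 and Agbl4 are long genes, which span 915, 1125, 1024 and 1267 kb.

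Adamtsl1, a gene for a secreted matrix glycoprotein related to the ADAMTS proteases, changed side within its body. It spans chr4:85513852-86428390. The segment chr4:85436451-85925300, which begins below the gene's start, held 173 regions, of which 172 were higher in set 2 and 115 of them separated. Its sums were 9446, 8600 and 7875 in set 1, against 15559, 16743 and 15244 in set 2, 1.83-fold higher in set 2 (1.61 to 2.13). Of its regions 158 lay in the gene itself, 157 of them higher in set 2, at 1.82-fold (1.61 to 2.10). The next segment, chr4:85925301-86428390, held 167 regions, of which 164 were higher in set 1 and 122 separated. Its sums were 16748, 16259 and 15428 against 8541, 8282 and 8658, 1.90-fold higher in set 1 (1.78 to 2.02).

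Neither set overlapped the other in either segment. The segments were, however, cut after the values were seen, at the ends of runs of exceptions. Their one-sided counts and lack of overlap therefore follow in part from the cut. Per kb of listed region, set 1 went from 112, 102 and 93.0 in the lower segment to 189, 183 and 174 in the upper, and set 2 from 184, 198 and 180 to 96.2, 93.3 and 97.5. Summed over the gene and its 2 kb flanks the directions offset each other, with 166 regions higher in set 1, 160 in set 2 and a ratio of 1.04 whose library pairs ran from 0.954 to 1.11. A gene-level value hides the change there. Sh3gl2, the endophilin gene just before it, had 45 regions on the set 1 side and 56 on the set 2 side, and its summed values of 15215, 15151 and 13839 against 14433, 15447 and 14632 overlapped.

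The longest unbroken run of exceptions lay here, with 130 regions over 413 kb, chr4:85436451-85849700. Its sums were 6332, 5647 and 5317 in set 1, against 10672, 11591 and 10632 in set 2, 1.90-fold higher in set 2 (1.68 to 2.18), and 94 of its regions were separated. The region with the largest difference, chr4:85885101-85888400, had 332, 296 and 364 against 599, 717 and 667.

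Dab1, the adaptor of reelin signalling in migrating neurons, held with its flanks 120 regions higher in set 2 among 141, with sums of 10911, 10804 and 9805 in set 1, against 13464, 14632 and 13948 in set 2. It was 1.33-fold higher in set 2 (1.23 to 1.49), with no overlap, though listed regions covered only 6.72% of the gene. The segment chr4:103540451-104506450, which begins below the gene's start at 103619500, had 71 of 73 regions higher in set 2 and was 1.97-fold higher there (1.82 to 2.22). It was also cut at the ends of runs of exceptions, after the values were seen. Within the gene it had 59 of 60, at 2.01-fold (1.85 to 2.19). The rest of the gene, chr4:104506451-104744844, with 60 of 79, was 1.23-fold higher (1.14 to 1.38). C8b, a complement component gene just beyond, had 12 of 19 regions higher in set 2 and 1.17-fold higher sums.

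**Figure D5:**
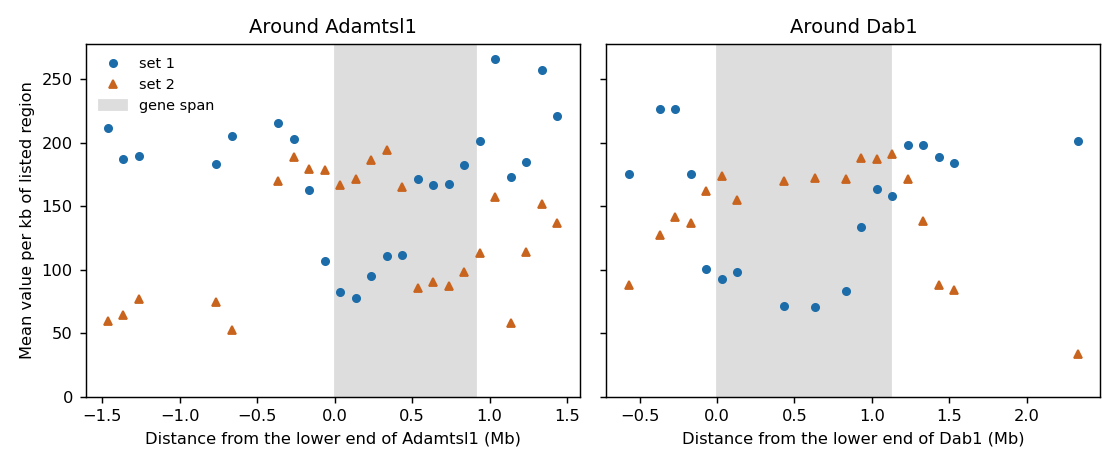
Mean deposited value per kb of listed region over the 3 libraries of each set, in 100 kb windows with 3 or more regions, around Adamtsl1 and around Dab1 (gene spans in grey, distance from the gene's lower end in Mb). Set 2 lies above set 1 over the lower part of Adamtsl1 and the order reverses within the gene. In Dab1 set 2 stays above in most of the windows shown, and listed regions covered 6.72% of that gene.

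Nfia, a factor of glial and brain development, also held both directions. The segment chr4:97547801-97687050, which runs across the gene's lower end at 97578066, held 21 regions, 20 of them higher in set 2 and 17 separated, and was 1.82-fold higher in set 2 (1.5 to 2.12). Of the 20, 11 lay below the gene and 9 in it, and the 10 regions in it summed 1.68-fold higher in set 2 (1.35 to 1.89). The rest of the gene, chr4:97687051-98118876, held 32 regions, all higher in set 1 and 30 separated, at 3.25-fold (3.06 to 3.40). These 32 were all centred between 97.7 and 97.8 Mb and covered 16 kb, so most of that segment had no listed region. Astn2, a neuronal migration gene read on the minus strand, had 26 of 26 regions higher in set 2 at chr4:65797901-66318350, 1.55-fold, and 138 of 157 higher in set 1 at chr4:65380803-65797900, 1.54-fold. The ends of these segments in Nfia and Astn2 were likewise set after the values were seen. The promoter windows checked for Dab1, Nfia, Astn2, Sh3gl2 and Agbl4 lay under no listed region, as did 1322 of all 1567 in the stretch. For Nfia the start checked was at 97581943, which is not the gene's lower end, and other starts may exist.

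Agbl4, a carboxypeptidase gene that trims glutamates from tubulin, had 13 of 14 regions higher in set 2. Its sums were 657, 586 and 543 in set 1, against 964, 927 and 1076 in set 2, 1.66-fold higher in set 2 (1.41 to 1.98), with no overlap, though listed regions covered only 0.418% of the gene. Mup6 had 5 of 6 regions higher in set 2 and sums of 672, 734 and 627 against 786, 888 and 805, 1.22-fold. Of 21 Mup genes, near-identical copies as well, only Mup6 and Mup21 carried a region. In all, 8 genes of the stretch summed higher in set 2. These were Dab1, Agbl4, Mup6 and C8b, without overlap between the sets, and Sh3gl2, Cyp2j12, Cyp2j13 and Lepr, with overlap.

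Hivep3, a zinc finger factor gene of immune and bone cells, had the opposite pattern. All 190 of its regions were higher in set 1, 164 of them separated, with 19692, 18762 and 18369 in set 1 and 7563, 6884 and 7692 in set 2, a ratio of 2.57 (2.39 to 2.86). The listed regions covered 19.7% of the gene. Foxo6 lies close beyond it, with a summed ratio of 3.27.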

How the data were processed

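The submitters' processing notes name CASAVA, Trimmomatic 0.36 and BWA 0.7.17 and the build GRCm38. No source used here gives the region caller, how its values were normalized or whether inputs were subtracted. The authors deposited 1 table without a header. Each region has 6 whole-number values, a signed direction, a value taken here as the authors' −log10 p (no header names it), and a deposited score that is 1000 throughout. The depth of the libraries is unknown, so no count model was fitted. There were 0 other columns of per-sample values.

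Members and gene lists were chosen with earlier results of these data known. Regions were assigned to 1 Mb windows by midpoint and to genes (RefSeq, GRCm38.p6) with a 2 kb flank. Promoter sequences were matched by symbol for 806 of the 935 named genes. Log2 ratios of sums had a pseudocount of 1. Named genes were the 12 per direction with the largest difference in a separated region, up to 2 per list and direction, those in exception windows and the longest regions, and fixed genes including Cdkn2a, Cdkn2b and Nmnat1. Some items are not reported here. Others were named after their values were seen, among them Hivep3, Runx3, Lck, Ptprf, Tek, Tnfsf15, Grik3, Elavl4, Col8a2, Prdm16, Pax7, Trp73, Tal1, Lepr and the C1q genes. The overlap step was tested on simulated data, with 0 of 300 genes differing. Python 3.11.15, pandas 2.3.3, numpy 2.4.6, scipy 1.17.1 and matplotlib 3.10.9 were used. Alternatives were scaling to equal totals, other window sizes, flanks, pseudocounts and thresholds, and leaving out each library.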

Additional observations from a re-analysis of the deposited data

How the results depend on the processing

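No paired analysis was possible because the 6 deposited values carry no replicate numbers. The share of regions higher in set 1 was 94.6% among regions with a deposited p under 0.05, 95.2% among separated regions and 96.6% by length. The log2 ratio, 0.69 as reported, was 0.50 with both sets scaled to equal totals and 0.89 as the median of regions. Scaling to equal totals gave 4 windows higher in set 2. Windows of 0.5 Mb gave 115 higher in set 1 and 6 in set 2, and windows of 2 Mb gave 41 and 0. Genes with a region higher in set 2, 61 as reported, numbered 38 from separated regions and 15 from regions with a log2 difference of at least 1. Leaving out each library in turn gave log2 ratios from 0.68 to 0.72 and 61 to 63 such genes, and separated regions higher in set 2 numbered 476 to 548, since fewer values have to be ordered. Across the results on the whole stretch, 66 of 78 alternative values were classed as the same within a set tolerance, and 12 moved. Counts and shares had no class for a reversal. Only the log2 ratio could reverse, and it did not. Of 495 alternatives for single genes and groups 3 reversed. Scaling to equal totals turned Adamtsl1 to a log2 ratio of −0.14, and Sh3gl2, whose sums overlapped and whose log2 ratio was −0.010, ran from −0.034 to 0.033 when each library was left out, above 0 without the third set 1 library (0.033) or the second set 2 library (0.020).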

Other observations

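Some gene families of the stretch had few or no listed regions, beside 65.8% of all its named genes with none. None of 11 Skint genes, immunoglobulin-like genes of skin and thymus, carried one, and 23 of 24 Prame family genes and 22 of 24 zinc finger genes named Zfp carried none. Pramel32, the Prame family gene with listed regions, had 6, all higher in set 1, with 1031, 1148 and 1020 in set 1 and 522, 616 and 536 in set 2. All 13 olfactory receptor genes carried a region higher in set 1, and 2 of them also one higher in set 2, with a median ratio of 1.45. Olfr1342 had 4644, 4609 and 4659 in set 1 and 3332, 3216 and 3256 in set 2, with no overlap. Some of these genes are close copies of each other, and no source used here gives how reads were assigned among them.

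Among all named genes of the stretch, 34.0% carried a region higher in set 1 and 6.52% one higher in set 2. Of 5 secreted phospholipase A2 genes 4 carried a region higher in set 1 and 3 of those also one higher in set 2, with a median ratio of 1.67. Pla2g5 had a ratio of 1.56 (1.52 to 1.61) over 37 regions. Of 17 Cyp2j and Cyp4 cytochrome P450 genes 4 carried a region higher in set 1 and 3 one higher in set 2, with a median ratio of 1.19. The epithelial list had 15 members, 8 with a region higher in set 1 and 2 of those also with one higher in set 2. It was not limited to epithelial genes, since it took in Tyrp1, a melanin synthesis gene of pigment cells. Tyrp1 had 11 regions, all higher in set 1, and a ratio of 1.85 (1.72 to 1.95). Grhl3, a factor of the skin barrier, had 19, all higher in set 1, and a ratio of 1.70 (1.58 to 1.82).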
